A study of Mus musculus with 60 samples.

Results

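Microglia and astrocytes sorted from the brains of 2-month-old wild-type (WT) mice were compared across all genes that either population expressed at 0.5 FPKM or more. FPKM is the number of fragments of a gene scaled to its length and to the depth of the library (fragments per kilobase and 1e6 mapped fragments). Among the 35999 genes of the series, 17112 met this limit, 11135 of them in both populations, 2353 in microglia only and 3624 in astrocytes only. The animals were male C57BL/6 mice of 2 months without a transgene, perfused and freed of meninges before enzymatic dissociation, and the cells of each brain formed 1 sample. Microglia were gated on CD11b and on low to intermediate CD45, and astrocytes were gated on ACSA2, an epitope on the Na/K-ATPase subunit encoded by Atp1b2. The labels give 3 libraries for each population. The deposited table holds 1 value per gene and population, used here as the authors' value for the group, so no value below has an error or a replicate check and no test was run. "Higher" and "lower" compare these group values. Depth was read from the steps between the lowest values, taking each group value as the mean of 3 libraries. By this reading the libraries held 16.04 to 17.3 M fragments (M, 1e6) in microglia and 18.99 to 20.4 M in astrocytes. A level of 0.5 FPKM then rested on a median of 48.8 fragments in microglia and 57.1 fragments in astrocytes, summed over 3 libraries.

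Microglia are the resident macrophages of the brain, which depend on the receptor for colony-stimulating factor 1 and survey the tissue with receptors for nucleotides, chemokines, antibodies and microbial products. Astrocytes derive from neural progenitors. They clear glutamate and potassium, contact blood vessels with their endfeet and supply neurons with lactate and lipids. The comparison asks which genes separate the populations at the youngest of the ages studied.

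The sorting antigens matched the gates. Itgam, which encodes CD11b, was at 50.9 FPKM in microglia and 0.0300 FPKM in astrocytes. Ptprc, which encodes CD45, was at 18.2 FPKM in microglia and 0.0250 FPKM in astrocytes. Atp1b2 was at 1.09 FPKM in microglia, against 101 FPKM in astrocytes (log2 fold -6.38). All log2 folds are microglia minus astrocytes, computed on FPKM divided by a size factor for each column with 0.1 added, which understates the difference for genes at low levels.

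Markers of other neural cells were low in the microglia column, while the astrocyte column held much oligodendrocyte RNA. The 20 microglia markers summed to 53289 FPKM in microglia and 856 FPKM in astrocytes, and 823 FPKM of the astrocyte sum came from Sparc, a matrix protein gene. In 16 of the 20 the astrocyte level was under 0.1% of the microglia level. The 20 astrocyte markers summed to 207 FPKM in microglia and 2203 FPKM in astrocytes, and 162 FPKM of the microglia sum came from Slc1a3, a glutamate transporter gene. The 13 oligodendrocyte markers, genes of myelin and its assembly, summed to 60.2 FPKM in microglia and 23157 FPKM in astrocytes, 10.5 times the astrocyte marker sum of that column. The 10 groups of each cell type came from WT mice and transgenic Alzheimer's disease model (AD) mice of 2 to 12 months. Ranges over these groups, and over their microglia and astrocyte pairs, therefore mix genotypes and ages. Over the 10 astrocyte groups the astrocyte sum lay between 2203 and 5310 FPKM and the oligodendrocyte sum between 14077 and 23157 FPKM. WT 2 months had the lowest astrocyte sum and the highest oligodendrocyte sum. The 15 endothelial markers summed to 31.0 FPKM in microglia and 2187 FPKM in astrocytes. Mural, ependymal, fibroblast and oligodendrocyte precursor markers summed to 5.33, 3.04, 0.372 and 1.51 FPKM in microglia, against 829, 123, 59.4 and 752 FPKM in astrocytes. The choroid plexus list, nearly all of it Ttr, had the largest sum of another cell type in the microglia column, at 307 FPKM in microglia and 486 FPKM in astrocytes. Red blood cell markers summed to 17.8 FPKM in microglia and 270.0 FPKM in astrocytes. Neutrophil markers, led by S100a9 at 61.3 FPKM, summed to 132 FPKM in microglia and 1.55 FPKM in astrocytes. In bulk RNA of this kind, more cells of a type and more RNA per cell cannot be told apart. A gene that was higher in astrocytes may therefore stand for any cell in that column, and the part of oligodendrocyte and vascular RNA in the lists below was not tested.

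**Figure D1:**
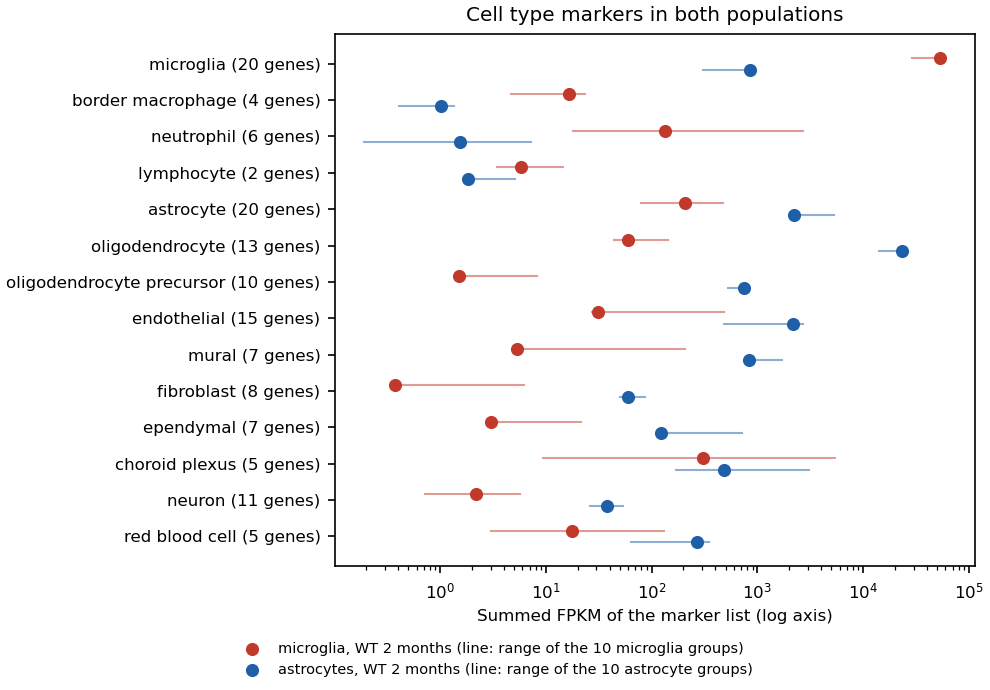
Summed FPKM of 14 cell type marker lists (log axis) in WT 2-month microglia (red) and astrocytes (blue), with the number of genes of at least 0.5 FPKM in each list. Lines span the 10 groups of each cell type, and the oligodendrocyte sum stands at 60.2 FPKM in microglia and 23157 FPKM in astrocytes.

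Most expressed genes differed between the populations. Of the 17112 genes 6099 (35.6%) were higher in microglia by a log2 fold over 0.5, the fold threshold of the study used here without its p-value, and 6404 (37.4%) were lower, which makes 73.1% in either direction. A log2 fold over 4, which is 16-fold, set 799 genes (4.67%) higher in microglia and 1529 genes (8.94%) lower. Counts over the lists below are to be read beside these shares. The median fold of all genes was 0.00. Genes higher in microglia made up 48.8% of those past 0.5, and 34.2% when FPKM was rescaled to a common sum, which shifted the median of all genes to -0.48. Taking size factors only over genes that reached 1 FPKM shifted it to -0.12. In all, 399 of the 17112 genes were listed at 0 in astrocytes and 519 were listed at 0 in microglia, and no fold is printed for these. Just inside the limit of 0.5 FPKM lay Zswim9, at 0.292 FPKM in microglia and 0.5003 FPKM in astrocytes. Just outside it lay Minar2, at 0.00373 FPKM in microglia and 0.499 FPKM in astrocytes.

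**Figure D2:**
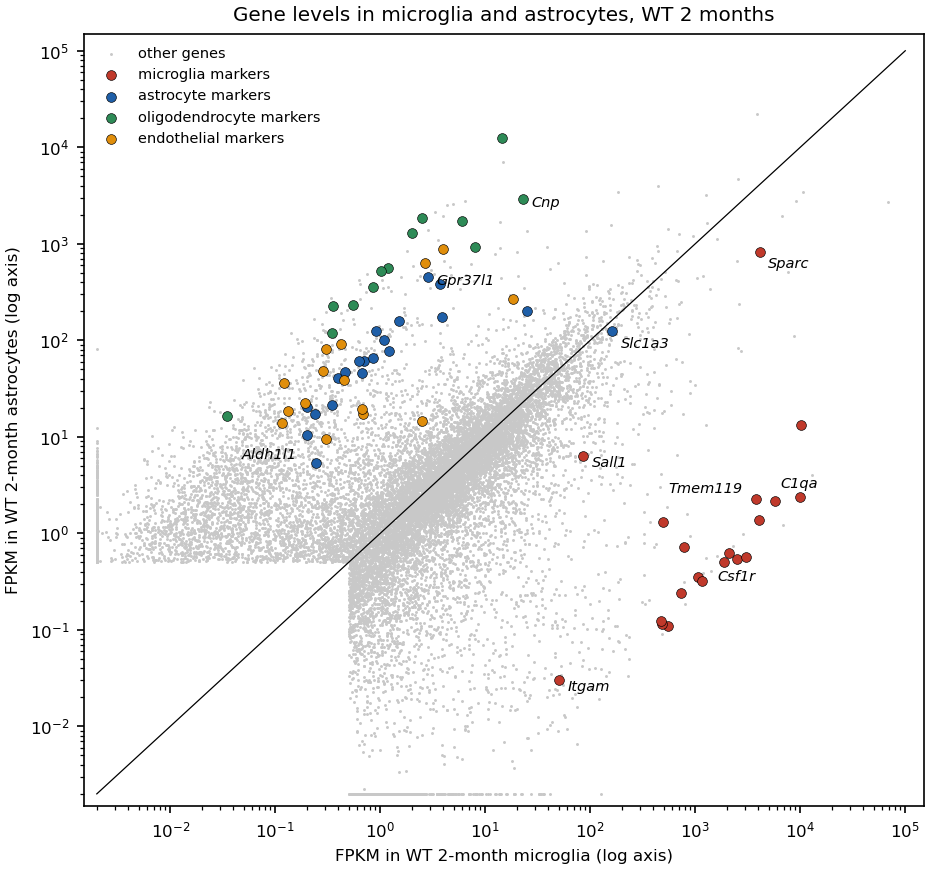
FPKM of the 17112 genes in WT 2-month microglia (horizontal) and astrocytes (vertical), both on log axes, with equal levels on the diagonal and genes listed at 0 drawn at the lower or left edge. Microglia markers (red) lie far below the diagonal except Sparc and Sall1. Oligodendrocyte (green), astrocyte (blue) and endothelial (orange) markers overlap in the astrocyte column, with medians of 559, 63.3 and 36.3 FPKM there. Cnp stands at 22.97 FPKM in microglia and 2941 FPKM in astrocytes.

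Microglial RNA was concentrated in few genes. The 15 most abundant genes held 40.0% of summed FPKM in microglia and 24.1% in astrocytes. Cst3, the gene of the protease inhibitor cystatin C, alone held 15.2% of the microglia sum, at 68165 FPKM in microglia and 2705 FPKM in astrocytes. It was followed in microglia by Ctss (12818 FPKM), Tmsb4x (10579 FPKM) and C1qb (10487 FPKM), which encode a cathepsin, an actin-binding peptide and a chain of complement C1q. Fth1, the ferritin heavy chain gene, led the astrocyte column at 3845 FPKM in microglia and 21900.3 FPKM in astrocytes. Among the next were the prostaglandin D synthase gene Ptgds (7013 FPKM), mitochondrial mt-Rnr2 (4705 FPKM) and Bsg (4015 FPKM). Of the 100 most abundant genes of each population 27 were shared. The 799 genes over 16-fold higher in microglia held 48.2% of summed FPKM in microglia and 1.15% in astrocytes, and the 1529 over 16-fold lower held 0.199% in microglia and 30.4% in astrocytes.

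The genes farthest apart were receptors and complement chains of the microglial surface and secretome. C1qc (ENSMUSG00000036896), the third chain of C1q, stood at 6827 FPKM in microglia and 1.23 FPKM in astrocytes, the highest fold among genes of at least 5 FPKM (12.37). Csf1r (ENSMUSG00000024621), the receptor on which microglial survival depends, stood at 3069 FPKM in microglia and 0.565 FPKM in astrocytes (log2 fold 12.21). Cx3cr1, the fractalkine receptor, was at 2507 FPKM in microglia and 0.546 FPKM in astrocytes. The 20 highest also held the purinergic receptors P2ry12 and P2ry13, the receptors Gpr34 and Siglech, the adaptors Tyrobp and Fcer1g, the chemokine Ccl4 and the lysosomal membrane genes Cd68 and Laptm5, with folds from 11.24 to 12.37. All 20 were higher in microglia in the other 9 microglia and astrocyte pairs of the series too, by no less than 9.62.

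Transcription factors of the microglial lineage followed the same order. Of 18 listed 18 were higher in microglia, 11 of them over 16-fold, with a median of 5.55. Spi1, which encodes PU.1, the factor that sets macrophage fate, was at 236 FPKM in microglia and 0.0504 FPKM in astrocytes. Irf8, a partner of PU.1, was at 104 FPKM in microglia and 0.133 FPKM in astrocytes. The gap was smaller for Sall1, a factor that marks microglia among macrophages, at 85.9 FPKM in microglia and 6.35 FPKM in astrocytes (log2 fold 3.78). Klf2, which endothelial cells also express, had the smallest difference, at 118 FPKM in microglia and 58.8 FPKM in astrocytes.

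Promoter sequence, which played no part in choosing the genes, was searched for the binding motifs of these factors. RefSeq promoters (build GRCm38.p6) of 300 bases, 250 before and 50 after the start, were matched by symbol for 470 of the 799 genes over 16-fold higher in microglia and for 1045 of the 1529 over 16-fold lower. The PU.1 motif GAGGAAGT, on either strand, was in 59 of 589 promoters (10%) of the genes over 16-fold higher. It was in 23 of 1399 promoters (1.64%) of the genes over 16-fold lower, against 1052 of all 32851 promoters (3.2%). Above a log2 fold of 8 the share was 15.9%, 17 of 107 promoters, and it was 2.79% for genes within 0.5. The composite motif of PU.1 and interferon regulatory factors, GGAANTGAAA, was in 1.53% of promoters of the genes over 16-fold higher, in 0.572% of those over 16-fold lower and in 0.731% of all. The SOX motif CCATTGTT was in 0.509% of promoters of the genes over 16-fold higher, in 1.5% of those over 16-fold lower and in 1.05% of all, which rested on 3 and 21 promoters. The NFI motif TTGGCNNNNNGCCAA was in 0 and 2 promoters of these sets. The PU.1 and composite motifs can overlap, since GAGGAAGT followed by gaaa holds both. A match is a description of the letters and says nothing of binding.

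**Figure D3:**
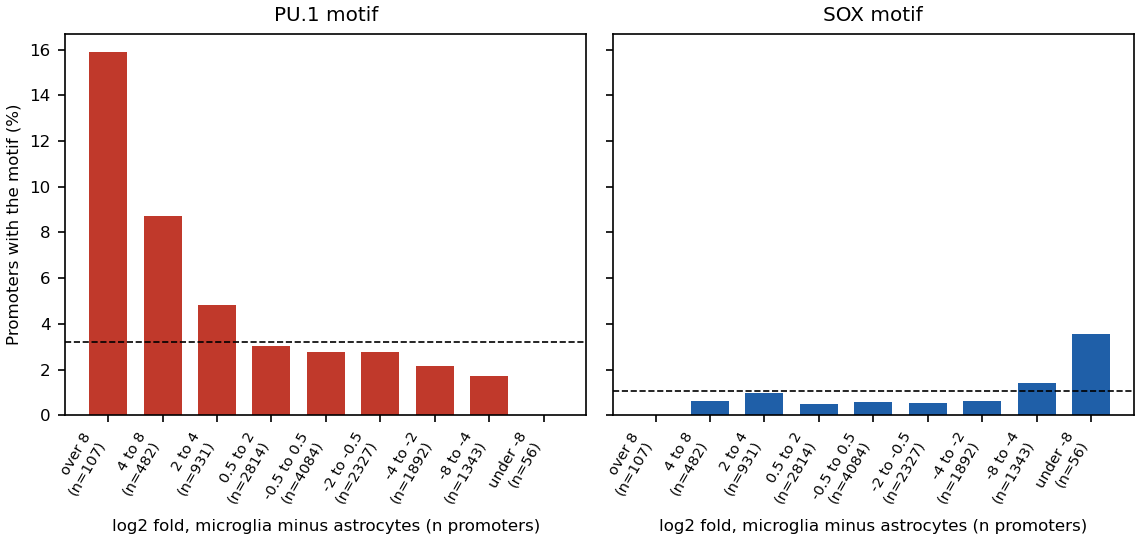
Share of 300-base promoters that hold the PU.1 motif (left) or the SOX motif (right), by log2 fold of the gene, with genes higher in microglia at the left of each panel. Dashed lines mark the share over all promoters, 3.2% and 1.05%, and the PU.1 share is 15.9% in the leftmost bin and 0% in the rightmost, which holds 56 promoters.

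Of the 122 named or listed genes over 16-fold higher in microglia that had a promoter, 14 held the PU.1 motif. In 4 of them, Ctss and Pld4 included, it reached or followed the start. The windows below show the other 10, where it lay wholly before the start, with up to 26 bases on each side and the motif in capitals. Each is written in the direction of its gene, so GAGGAAGT and its reverse complement ACTTCCTC mark the motif on the gene's strand and on the opposite strand.

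C1qc, chr4:136893076-136893135, minus strand: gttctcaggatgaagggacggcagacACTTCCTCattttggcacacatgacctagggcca
Cd37, chr7:45238840-45238890, minus strand: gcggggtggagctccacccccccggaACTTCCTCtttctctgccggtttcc
Vav1, chr17:57279063-57279099, plus strand: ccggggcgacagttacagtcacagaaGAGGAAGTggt
Pik3cg, chr12:32208628-32208687, minus strand: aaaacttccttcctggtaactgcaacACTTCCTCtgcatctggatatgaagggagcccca
Adora3, chr3:105904365-105904420, plus strand: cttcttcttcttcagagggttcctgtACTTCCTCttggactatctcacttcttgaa
Fcgr4, chr1:171018876-171018925, plus strand: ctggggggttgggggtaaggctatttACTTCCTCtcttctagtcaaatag
Inpp5d, chr1:87620266-87620311, plus strand: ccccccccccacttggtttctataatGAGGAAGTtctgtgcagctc
S100a8, chr3:90668873-90668932, plus strand: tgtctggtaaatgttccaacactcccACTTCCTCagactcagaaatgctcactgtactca
Tlr1, chr5:64933559-64933607, minus strand: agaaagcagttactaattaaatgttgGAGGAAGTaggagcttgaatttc
Ctsc, chr7:88277908-88277967, plus strand: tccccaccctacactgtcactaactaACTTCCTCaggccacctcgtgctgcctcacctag

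In these 10 genes the motif ended between 4 and 188 bases before the start. The nearest was in Vav1, a signalling adaptor of blood cells at 96.0 FPKM in microglia and 0.0647 FPKM in astrocytes, where it ended 4 bases before the start. In C1qc it ended 188 bases before the start. Cd37, a tetraspanin of leukocytes, was at 171 FPKM in microglia and 0.111 FPKM in astrocytes. Pik3cg, the catalytic subunit of a lipid kinase of leukocytes, was at 20.9 FPKM in microglia and 0.0244 FPKM in astrocytes. S100a8, a calcium-binding protein of neutrophils, was at 37.2 FPKM in microglia and 0.358 FPKM in astrocytes.

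Receptors for antibodies, sialic acids and lipids were found almost solely in the microglia column. Of 25 genes of the Fc receptor, Siglec and Trem families 21 passed the FPKM limit. All 21 were over 16-fold higher in microglia (4.67% of all genes), with a median of 8.85, and the median was 7.87 over the 25 genes listed. Genes that passed only through microglia were prone to differ in that direction, so the count is a description. Trem2, a lipid receptor tied to Alzheimer's disease risk, was at 479 FPKM in microglia and 0.115 FPKM in astrocytes. Its adaptor Tyrobp was at 4034 FPKM in microglia and 1.38 FPKM in astrocytes. Fcgr3, a low-affinity IgG receptor, was at 1424 FPKM in microglia and 0.408 FPKM in astrocytes. The inhibitory Siglec Cd33 was at 71.8 FPKM in microglia and 0.0215 FPKM in astrocytes. Fcgr4, Siglecf, Hcst, Treml2 and Lilra5 were listed at 0 in astrocytes, at 2.498 to 18.97 FPKM in microglia. The lowest fold of the list belonged to Clec7a, the beta-glucan receptor dectin-1, at 2.26 FPKM in microglia and 0.0191 FPKM in astrocytes.

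The kinases and adaptors behind such receptors were likewise higher in microglia. Of 24 haematopoietic signalling genes 24 were higher in microglia and 23 were over 16-fold higher, with a median of 7.26. Syk, the kinase recruited by Tyrobp and Fcer1g, was at 13.5 FPKM in microglia and 0.0534 FPKM in astrocytes. Lyn, a Src family kinase, was at 249 FPKM in microglia and kept 5.19 FPKM in astrocytes. Inpp5d, a lipid phosphatase that restrains these signals, was at 85.7 FPKM in microglia and 0.717 FPKM in astrocytes. Only Fgr fell short of 16-fold once 0.1 FPKM was added, at 0.599 FPKM in microglia and 0.00879 FPKM in astrocytes. Its printed levels are themselves more than 16-fold apart, so the shortfall rests on the added 0.1 FPKM.

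Pattern recognition genes were higher in microglia without exception among the 17 that passed the limit (median 6.01), and 11 were over 16-fold higher. Tlr7, a sensor of single-stranded RNA, was at 31.8 FPKM in microglia and 0.00860 FPKM in astrocytes. Tlr1, a partner of Tlr2, was at 7.79 FPKM in microglia and 0.0248 FPKM in astrocytes. Tlr2, a sensor of bacterial lipoproteins, was at 40.9 FPKM in microglia and 0.431 FPKM in astrocytes. Cd14, a co-receptor for lipopolysaccharide, was at 325 FPKM in microglia and 0.802 FPKM in astrocytes. Tlr3, the sensor of double-stranded RNA, was the nearest to equal, at 11.6 FPKM in microglia and 4.78 FPKM in astrocytes (log2 fold 1.304). The shared adaptor Myd88 was at 37.9 FPKM in microglia and 4.57 FPKM in astrocytes.

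Of 7 genes of the respiratory burst that passed the limit 6 were over 16-fold higher in microglia. Ncf1, a cytosolic subunit of the phagocyte NADPH oxidase, was at 164 FPKM in microglia and 0.0600 FPKM in astrocytes, and the membrane subunit gene Cyba was at 1005 FPKM in microglia and 34.2 FPKM in astrocytes. Its partner Cybb did not pass, at 0.357 FPKM in microglia and 0.0119 FPKM in astrocytes. Nos2, the inducible nitric oxide synthase gene, was listed at 0 in microglia and was at 0.814 FPKM in astrocytes.

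Complement genes were split by role. The C1q chains and the receptors were higher in microglia, while most regulators were higher in astrocytes. C3ar1, the receptor for C3a, was at 66.7 FPKM in microglia and 0.0196 FPKM in astrocytes. C5ar1, the receptor for C5a, was at 46.1 FPKM in microglia and 0.0519 FPKM in astrocytes. On the astrocyte side were Serping1, the C1 inhibitor, at 0.219 FPKM in microglia and 16.4 FPKM in astrocytes, and Cd59a, which blocks the membrane attack complex, at 1.76 FPKM in microglia and 56.7 FPKM in astrocytes. C4b was at 0.192 FPKM in microglia and 1.98 FPKM in astrocytes. The central component C3 did not pass the limit, at 0.0868 FPKM in microglia and 0.0826 FPKM in astrocytes. Of 16 genes that passed 9 were higher in microglia and 5 lower, with a median of 3.81, and the median was -0.02 over the 20 genes listed.

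Antigen presentation genes were higher in microglia for both classes. In class I 10 of 11 genes were higher, none over 16-fold (median 2.34). B2m, the light chain, was at 7611 FPKM in microglia and 512 FPKM in astrocytes, and the classical heavy chain gene H2-D1 was at 268 FPKM in microglia and 89.7 FPKM in astrocytes. In class II 7 of 7 genes were higher, 4 of them over 16-fold. The peptide loading gene H2-DMa was at 180.1 FPKM in microglia and 0.748 FPKM in astrocytes, whereas H2-Ab1, a chain of the presenting molecule, was at 9.19 FPKM in microglia and 0.759 FPKM in astrocytes. Some H2 genes, above all in class I, are close copies of each other, and reads shared among such copies may have been split by the counting.

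Lysosomal genes carried a large share of microglial RNA. The 26 genes, most of them proteases and glycosidases, summed to 25.9% of FPKM in microglia and 1.48% in astrocytes, and 22 were higher in microglia (median 3.29). Cst3, which encodes a secreted inhibitor of cathepsins, made up most of the microglia share, and the other 25 genes held 10.6% in microglia and 0.654% in astrocytes. Ctss, a cathepsin of phagocytes, was at 12818 FPKM in microglia and 4.06 FPKM in astrocytes. Ctsc, a dipeptidyl peptidase that activates serine proteases, was at 177 FPKM in microglia and 4.83 FPKM in astrocytes. Ctsd, an aspartic protease of most cells, was at 8640.0 FPKM in microglia and 112 FPKM in astrocytes. Legumain (Lgmn) and progranulin (Grn) were at 2746 and 893 FPKM in microglia, against 78.3 and 28.6 FPKM in astrocytes, and the cathepsins Ctsb and Ctsl had smaller folds of 2.94 and 2.52. Some membrane genes went the other way or were near equal. Lamp1 was at 670.0 FPKM in microglia and 845 FPKM in astrocytes, and Cd63 was at 86.4 FPKM in microglia and 130.3 FPKM in astrocytes (log2 fold -0.55). Both had folds above and below 0 in the other 9 pairs, from -0.70 to 0.30 for Lamp1 and from -1.35 to 0.78 for Cd63. Tmem106b, a lysosomal membrane gene tied to frontotemporal dementia, was at 9.19 FPKM in microglia and 15.7 FPKM in astrocytes.

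**Figure D4:**
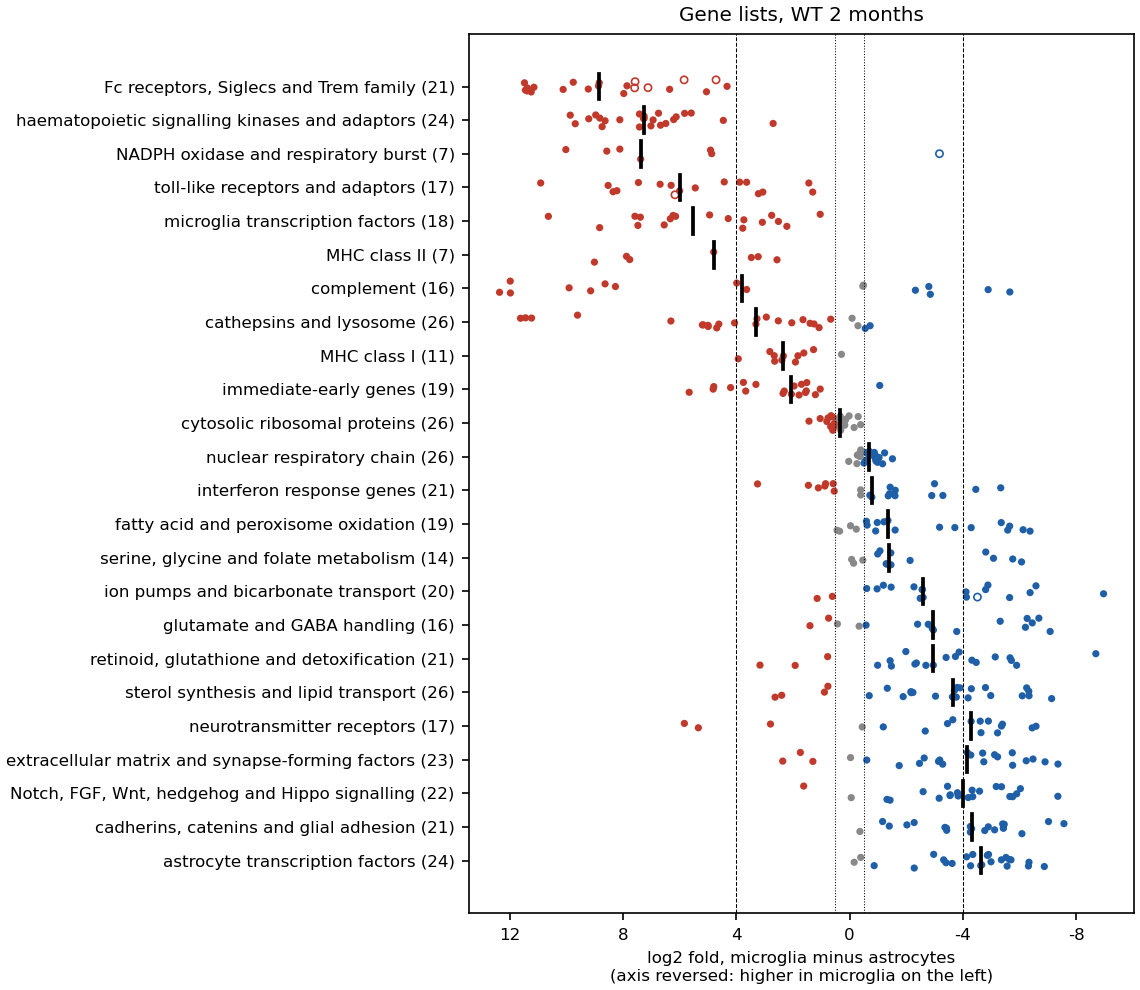
Log2 folds (microglia minus astrocytes, axis reversed so that genes higher in microglia lie at the left) of the genes in 24 lists, with the number of genes in parentheses. Red points lie above 0.5, blue points below -0.5 and grey points between, black bars are list medians, hollow points are listed at 0 in 1 population so that the added 0.1 sets their place, and dashed lines mark 16-fold.

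Several signalling systems were divided between the populations, the receptor on 1 side and the ligand on the other. Csf1r at 3069 FPKM in microglia faced both its ligands on the astrocyte side. Il34 was at 0.00983 FPKM in microglia and 8.35 FPKM in astrocytes, and Csf1 was at 3.47 FPKM in microglia and 10.5 FPKM in astrocytes. Of these ligands Csf1 had another direction in at least 1 of the other 9 pairs, where its fold ran from -1.73 to 0.47. Fractalkine (Cx3cl1), which neurons are known to make, was at 0.206 FPKM in microglia and 7.19 FPKM in astrocytes, opposite to its receptor Cx3cr1. The granulocyte receptor gene Csf3r was at 140.1 FPKM in microglia and 0.0334 FPKM in astrocytes.

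The TGF-beta family was divided by ligand. Tgfb1, a cytokine that maintains microglial identity, was at 28.8 FPKM in microglia and 1.02 FPKM in astrocytes. Tgfb2 was at 0.133 FPKM in microglia and 4.73 FPKM in astrocytes, and Tgfb3 was at 0.0348 FPKM in microglia and 1.99 FPKM in astrocytes. The receptor Tgfbr1 and the anchor protein Nrros, which holds latent TGF-beta1 on the microglial surface, lay with Tgfb1, with folds of 5.84 and 5.68. Id3, a target gene of BMP signals, was at 1.67 FPKM in microglia and 214 FPKM in astrocytes. Over the 19 genes that passed, 8 were higher and 10 lower (median -0.78), beside 35.6% and 37.4% of all genes.

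Inflammatory cytokines were transcribed in microglia at levels that differed widely among them. Il1a was at 186 FPKM in microglia and 0.0746 FPKM in astrocytes. Tnf was at 59.7 FPKM in microglia and 0.0897 FPKM in astrocytes. Il6 was far lower, at 3.74 FPKM in microglia and 0.0945 FPKM in astrocytes. For Il1b, Tnf, Il1a and Il6 the level in microglia lay at or near the low end of the 10 microglia groups, with Tnf ranging from 59.7 to 361 FPKM. Il33, an alarmin of astrocytes and oligodendrocytes, was at 0.228 FPKM in microglia and 61.3 FPKM in astrocytes, the lowest fold of the list (-7.51). The receptor genes Osmr, Il1r1 and Il1rap were on the astrocyte side as well, with folds of -4.01, -1.96 and -4.19. Of 21 genes that passed 15 were higher in microglia and 5 lower.

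Chemokine ligands were likewise divided. The CC chemokines Ccl3 and Ccl4 were at 780.5 and 1177 FPKM in microglia, against 0.725 and 0.384 FPKM in astrocytes. Cxcl12, which guides migrating cells, was at 0.366 FPKM in microglia and 43.2 FPKM in astrocytes. Cxcl14 was at 0.329 FPKM in microglia and 47.2 FPKM in astrocytes. Of 18 genes that passed 12 were higher in microglia and 5 lower. Among receptors, Ccr6 lay on the microglial side at 227 FPKM in microglia and 0.0335 FPKM in astrocytes, and the scavenging receptor Ackr3 lay on the astrocyte side at 0.709 FPKM in microglia and 19.4 FPKM in astrocytes. Ccr2, which marks blood monocytes, was at 1.44 FPKM in microglia and 0.00502 FPKM in astrocytes.

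Nucleotide and adenosine receptors showed the same division within a family. P2ry12, the ADP receptor that steers microglial processes, was at 5804 FPKM in microglia and 2.15 FPKM in astrocytes. P2ry6, the UDP receptor of phagocytosis, was at 130.0 FPKM in microglia and 0.0640 FPKM in astrocytes. The UDP-glucose receptor P2ry14 lay on the other side, at 0.0463 FPKM in microglia and 5.51 FPKM in astrocytes. Adora3 was at 18.0 FPKM in microglia and 0.00438 FPKM in astrocytes, and Adora1 was at 0.145 FPKM in microglia and 17.8 FPKM in astrocytes. The enzymes that break down extracellular ATP were exchanged too, with Entpd1 at 131 FPKM in microglia and 3.84 FPKM in astrocytes, and Entpd2 at 0.110 FPKM in microglia and 13.5 FPKM in astrocytes. By counts the list was even, 7 higher and 6 lower of 14, beside 35.6% and 37.4% of all genes.

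Receptors for apoptotic cells divided in the same manner. Mertk was at 98.0 FPKM in microglia and 11.0 FPKM in astrocytes. Its relatives Axl and Tyro3 were on the astrocyte side, Axl at 0.674 FPKM in microglia and 9.65 FPKM in astrocytes and Tyro3 at 0.0616 FPKM in microglia and 22.2 FPKM in astrocytes. Axl had another direction elsewhere, with folds from -3.71 to 1.12 in the other 9 pairs. Gas6 and Pros1, the bridging ligands of these receptors, were higher in microglia with folds of 1.18 and 3.26. Mfge8, which bridges to integrins, was at 5.72 FPKM in microglia and 340.4 FPKM in astrocytes, and Megf10, an engulfment receptor of astrocytes, was at 0.0258 FPKM in microglia and 6.46 FPKM in astrocytes.

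**Figure D5:**
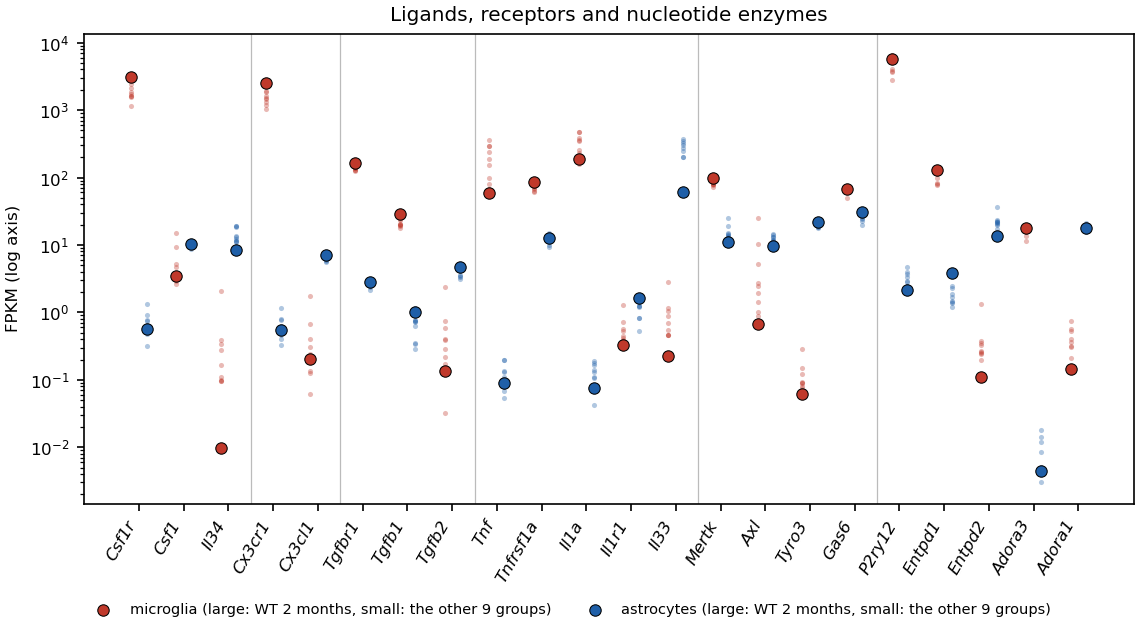
FPKM (log axis) of 22 ligand, receptor and nucleotide enzyme genes in microglia (red, left of each pair) and astrocytes (blue, right), with WT 2 months as large points and the other 9 groups as small points. Csf1r, Cx3cr1, Tgfb1, Mertk and P2ry12 are higher in microglia in every group, while the WT 2-month level of Il34 stands at 0.00983 FPKM in microglia and 8.35 FPKM in astrocytes.

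On the astrocyte side the largest folds belonged to genes of myelin. Mal, whose product sorts membrane to myelin, was at 2.52 FPKM in microglia and 1861 FPKM in astrocytes (log2 fold -9.43). Mog, a glycoprotein of the outer myelin surface, was at 2.01 FPKM in microglia and 1286 FPKM in astrocytes. Olig1, a factor of the oligodendrocyte lineage, was at 0.756 FPKM in microglia and 486 FPKM in astrocytes. Also among the 20 lowest were Fa2h and Ugt8a, enzymes of myelin lipids, and Gjb1, a gap junction gene of oligodendrocytes. All 20 were lower in microglia in the other 9 pairs.

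Genes that mark astrocytes had a lower median in the astrocyte column than the oligodendrocyte markers, 63.3 against 559 FPKM. Most of the astrocyte markers were past 16-fold. Of the 20 markers 19 were lower in microglia, 17 of them over 16-fold, with a median of -6.06. Gpr37l1, an orphan receptor of astrocytes, was the most abundant, at 2.85 FPKM in microglia and 458 FPKM in astrocytes. Aldoc, the astrocytic aldolase, was at 3.70 FPKM in microglia and 384 FPKM in astrocytes. Aqp4, the water channel of endfeet, was at 0.671 FPKM in microglia and 46.0 FPKM in astrocytes. Gfap, the intermediate filament gene, was low in both, at 0.244 FPKM in microglia and 5.36 FPKM in astrocytes. Slc1a3, the glutamate transporter GLAST, was the exception. It was at 162 FPKM in microglia and 123 FPKM in astrocytes (log2 fold 0.43, below 0 when FPKM was rescaled to a common sum), and its fold ran from -1.91 to 1.27 in the other 9 pairs.

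Astrocyte transcription factors showed the reverse of the microglial list, with 22 of 24 lower in microglia, 16 over 16-fold, and a median of -4.65. Sox9, a factor of astrocyte identity, was at 0.345 FPKM in microglia and 21.5 FPKM in astrocytes. Sox2, which neural progenitors and glia express, was at 0.324 FPKM in microglia and 34.6 FPKM in astrocytes. Hes5, a target of Notch, was at 0.222 FPKM in microglia and 26.6 FPKM in astrocytes. Among nuclear factor I genes, which promote astrocyte formation, Nfib was at 0.0622 FPKM in microglia and 7.52 FPKM in astrocytes, whereas Nfia was at 3.34 FPKM in microglia and 6.34 FPKM in astrocytes. The cerebellar and midline factor Zic1 was at 0.0178 FPKM in microglia and 1.37 FPKM in astrocytes.

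Transport genes were mostly on the astrocyte side. For glutamate and GABA 12 of 16 genes were lower in microglia and 2 higher (median -2.94). Slc1a2, the transporter GLT-1, was at 0.703 FPKM in microglia and 61.0 FPKM in astrocytes. Slc6a11, a GABA transporter, was at 0.729 FPKM in microglia and 74.5 FPKM in astrocytes. Glul, glutamine synthetase, differed little, at 252 FPKM in microglia and 388 FPKM in astrocytes (log2 fold -0.58). Among ion pumps 18 of 20 genes were lower, with the bicarbonate transporter gene Slc4a4 at 0.239 FPKM in microglia and 17.4 FPKM in astrocytes. Of 20 channel and gap junction genes 12 were lower, among them connexin 43 (Gja1) at 0.393 FPKM in microglia and 40.9 FPKM in astrocytes and the potassium channel Kcnj10 at 0.788 FPKM in microglia and 34.9 FPKM in astrocytes. The microglial channels were others. Hvcn1, a proton channel, was at 25.4 FPKM in microglia and 0.0555 FPKM in astrocytes. Kcnk6, a potassium leak channel, was at 24.9 FPKM in microglia and 0.232 FPKM in astrocytes, and Kcnk13 was near equal at 35.9 FPKM in microglia and 28.4 FPKM in astrocytes.

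Receptors for transmitters also had a small microglial group. Of 17 that passed 13 were lower in microglia and 3 higher. Cnr2, the cannabinoid receptor of immune cells, was at 4.07 FPKM in microglia and 0.00410 FPKM in astrocytes. Its neural counterpart Cnr1 was at 0.00598 FPKM in microglia and 0.585 FPKM in astrocytes. Grm3, a metabotropic glutamate receptor, was at 0.769 FPKM in microglia and 78.0 FPKM in astrocytes, and Ntsr2, a neurotensin receptor of astrocytes, was at 1.52 FPKM in microglia and 159.6 FPKM in astrocytes.

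Glucose metabolism used different members of the same families. The fructose transporter gene Slc2a5 was at 469 FPKM in microglia and 0.123 FPKM in astrocytes, whereas the glucose transporter gene Slc2a1 was at 18.2 FPKM in microglia and 269 FPKM in astrocytes. Slc2a1 is also a marker of brain endothelium, whose markers were higher in the astrocyte column. Hexokinases Hk2 and Hk3 were at 22.8 and 24.9 FPKM in microglia, against 0.137 and 0.0181 FPKM in astrocytes, and Hk1 was at 3.02 FPKM in microglia and 7.11 FPKM in astrocytes. Of the monocarboxylate transporters, which carry lactate, Slc16a3 had a fold of 1.89 and Slc16a1 a fold of -4.35. Muscle-type glycogen phosphorylase (Pygm) was at 1.252 FPKM in microglia and 10.6 FPKM in astrocytes. Of 20 genes 6 were higher in microglia and 12 lower, beside 35.6% and 37.4% of all genes.

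Sterol and lipid genes were lower in microglia in 22 of 26 cases (median -3.67). Hmgcs1, an early enzyme of cholesterol synthesis, was at 3.57 FPKM in microglia and 52.5 FPKM in astrocytes. The carriers Apoe and Clu were at 184 and 7.27 FPKM in microglia, against 3445 and 613 FPKM in astrocytes. For Apoe the microglia level was the lowest of the 10 microglia groups (184 to 5872 FPKM) and the astrocyte level the lowest of the 10 astrocyte groups (3445 to 8173 FPKM), so that its fold ran from -4.63 to -0.11 in the other 9 pairs. The sterol exporter genes went the other way. Abca1 was at 26.9 FPKM in microglia and 5.15 FPKM in astrocytes, and Abcg1 was at 49.7 FPKM in microglia and 30.03 FPKM in astrocytes. Oligodendrocytes also make cholesterol for myelin, and their markers were higher in the same column.

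Shifts to the astrocyte side also ran through amino acid, fatty acid and redox metabolism. Psat1, an enzyme of serine synthesis, was at 2.52 FPKM in microglia and 146 FPKM in astrocytes, while Phgdh, the first enzyme of that path, was at 74.1 FPKM in microglia and 209.8 FPKM in astrocytes. Of 14 serine and folate genes 11 were lower in microglia and none higher (median -1.39). Of 19 genes of fatty acid and peroxisome metabolism 15 were lower (median -1.35). The acyl-CoA synthetase gene Acsl3 was at 1.76 FPKM in microglia and 91.9 FPKM in astrocytes. Mitochondrial beta-oxidation genes were nearer to equal, such as Hadha at 6.57 FPKM in microglia and 7.98 FPKM in astrocytes. Of 21 detoxification genes 18 were lower (median -2.96). Mt3, a metallothionein of brain, was at 1.19 FPKM in microglia and 79.4 FPKM in astrocytes, and the glutathione transferase gene Gstm1 was at 7.84 FPKM in microglia and 415 FPKM in astrocytes. Hmox1, which degrades heme, and Gpx1, a glutathione peroxidase gene, were higher in microglia, with folds of 3.17 and 1.92.

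Matrix, adhesion and developmental signalling genes were lower in microglia in most cases. Of 23 matrix genes 19 were lower (median -4.16). Sparcl1, a secreted factor that promotes synapses, was at 4.61 FPKM in microglia and 581 FPKM in astrocytes, whereas its relative Sparc was at 4118 FPKM in microglia and 823 FPKM in astrocytes. The proteoglycan gene Bcan was at 0.814 FPKM in microglia and 83.7 FPKM in astrocytes. Of 21 cadherins and glial adhesion genes 20 were lower, with Ncam1 at 0.226 FPKM in microglia and 63.4 FPKM in astrocytes. Integrins were divided. Itgb2, the beta2 chain of leukocytes, was at 121 FPKM in microglia and 0.0276 FPKM in astrocytes, and Itgb5 was at 767 FPKM in microglia and 17.1 FPKM in astrocytes. Itgb8, which activates latent TGF-beta, was at 0.0411 FPKM in microglia and 7.34 FPKM in astrocytes. The common beta1 chain Itgb1 was near equal, at 61.4 FPKM in microglia and 55.5 FPKM in astrocytes. Of 22 Notch, FGF, Wnt, hedgehog and Hippo genes 20 were lower and 1 higher. The exception was Notch2, at 7.90 FPKM in microglia and 2.57 FPKM in astrocytes, while Fgfr3, a receptor of astrocytes, was at 0.203 FPKM in microglia and 20.2 FPKM in astrocytes.

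Genes that every cell uses differed less. Of 26 cytosolic ribosomal protein genes 15 lay within 0.5 and 11 were higher in microglia, and their median of 0.34 was -0.15 when FPKM was rescaled to a common sum. Of 26 nuclear genes of the respiratory chain 19 were lower in microglia and none higher (median -0.70, and -1.19 after that rescaling). Cox4i1, a subunit of cytochrome oxidase, was at 151 FPKM in microglia and 309.8 FPKM in astrocytes, and Ndufs8 of complex I was at 129 FPKM in microglia and 130.2 FPKM in astrocytes. Genes often used as references were no constant. Actb was at 9137 FPKM in microglia and 2750.1 FPKM in astrocytes, B2m had a fold of 3.93 and Pgk1 a fold of -1.56. Gapdh, the qPCR reference of the study, was low in both, at 4.52 FPKM in microglia and 9.19 FPKM in astrocytes. Its fold ran from -3.14 to 1.21 in the other 9 pairs, and what set its low level was not tested. Of the 14 genes 5 were higher in microglia, 3 lower and 6 within 0.5. The list median was 0.27, or -0.21 after rescaling. The most abundant genes of near equal level were Cfl1, an actin-severing factor, at 515 FPKM in microglia and 509 FPKM in astrocytes, and the chaperone Hspa8 at 397 FPKM in microglia and 416 FPKM in astrocytes.

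Immediate-early genes, which dissociation of tissue is known to induce, were higher in microglia in 18 of 19 cases (median 2.06). Atf3, a stress factor, was at 264 FPKM in microglia and 5.23 FPKM in astrocytes. Jun was at 739.9 FPKM in microglia and 59.6 FPKM in astrocytes, and Fos was at 402 FPKM in microglia and 80.8 FPKM in astrocytes. Klf4 alone was lower in microglia, at 3.14 FPKM in microglia and 6.86 FPKM in astrocytes, and its fold ran from -0.31 to 1.34 in the other 9 pairs. The part of dissociation in these levels, and in those of Tnf, Il1a and the CC chemokines, was not tested.

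Interferon response genes had no common side. Of 21 that passed 7 were higher in microglia and 12 lower, beside 35.6% and 37.4% of all genes. Their median was -0.79, and it ranged from -0.74 to 1.45 in the other 9 pairs. Bst2, an antiviral membrane protein, was at 71.7 FPKM in microglia and 26.8 FPKM in astrocytes. Ifitm3, which blocks virus entry, was at 20.3 FPKM in microglia and 462 FPKM in astrocytes. Isg15, a ubiquitin-like modifier, was at 4.77 FPKM in microglia and 15.2 FPKM in astrocytes, and its fold ran from -1.25 to 1.72 in the other pairs.

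Of 24 genes tied to amyloid or to the risk of Alzheimer's disease 16 were higher in microglia and 7 lower, 10 and 3 of them over 16-fold. The precursor App was at 49.8 FPKM in microglia and 638 FPKM in astrocytes, and the beta-secretase gene Bace1 was at 1.18 FPKM in microglia and 11.0 FPKM in astrocytes. Beside Trem2, Spi1 and Cd33, the microglial genes were Ms4a6d (85.1 FPKM), Abi3 (47.2 FPKM) and Plcg2 (34.5 FPKM), each below 0.5 FPKM in astrocytes. Bin1, a membrane-shaping protein, was abundant in both at 423 FPKM in microglia and 292 FPKM in astrocytes.

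Some non-coding genes also differed. Of 264 miRNA genes among the 17112 genes 25 (9.47%) were over 16-fold higher in microglia, beside 4.67% of all genes, and 16 (6.06%) were over 16-fold lower, beside 8.94% of all genes. Of the 264, 119 were listed at 0 in 1 population. These are levels of the gene or its host transcript in long RNA, and mature miRNAs were not measured. Mir142hg, the host of a miRNA of blood cells, was at 99.7 FPKM in microglia and 0.187 FPKM in astrocytes. Mir146, whose miRNA restrains toll-like receptor signals, was at 33.7 FPKM in microglia and 0.251 FPKM in astrocytes. Mir219a-2, whose miRNA promotes oligodendrocyte maturation, was listed at 0 in microglia and was at 81.5 FPKM in astrocytes. Mir9-3hg, the host of a neural miRNA, was listed at 0 in microglia and was at 1.82 FPKM in astrocytes. The mature sequences that RefSeq (GRCm38.p6) gives for these genes are shown because they name what the transcripts carry, 5′ to 3′, with the seed (bases 2 to 8) in capitals, and the 4 seeds differ.

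miR-142a-3p, chr11:87756903-87756925, plus strand: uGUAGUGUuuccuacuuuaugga
miR-146a-5p, chr11:43374435-43374456, minus strand: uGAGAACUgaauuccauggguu
miR-219a-5p, chr2:29845689-29845709, minus strand: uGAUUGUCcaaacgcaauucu
miR-9-5p, chr7:79505279-79505301, plus strand: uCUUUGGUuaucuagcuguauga

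The other 9 microglia and astrocyte pairs, of WT mice of 4 to 12 months and AD mice (APPswe/PS1-delta=E9) of 2 to 12 months, were computed in the same way as a description. Of the 799 genes over 16-fold higher in microglia 775 (97.0%) were higher in all 9 pairs, and 511 (64.0%) were past 16-fold in all 9. Of the 1529 over 16-fold lower 1510 (98.8%) were lower in all 9, but 316 (20.7%) were past 16-fold in all 9. In AD mice of the same age 700 of the 799 genes and 973 of the 1529 genes were past 16-fold. Over all genes tested in each pair, the share over 16-fold higher was 4.7%, 5.1%, 4.94% and 4.82% in WT mice of 4, 6, 9 and 12 months. It was 4.77%, 4.29%, 4.74%, 5.1% and 5.16% in AD mice of 2, 4, 6, 9 and 12 months. The share over 16-fold lower varied more. It was 6.64%, 9.32%, 8.53% and 9.46% in the WT pairs and 6.09%, 2.4%, 7.09%, 7.42% and 7.81% in the AD pairs, in the same order of ages, against 8.94% in WT mice of 2 months. The folds of all 17112 genes in WT mice of 2 months and AD mice of 2 months had a Pearson correlation of 0.970 across genes, which share gene lengths and the sorting, and 0.925 to 0.970 with the other pairs. Among the 10 abundant genes named for a change of direction, Ttr had the widest range of folds, at 304 FPKM in microglia and 478 FPKM in astrocytes with folds from -6.38 to 3.20 elsewhere. Ttr is the transthyretin gene of the choroid plexus, whose markers ranged from 9.32 to 5418 FPKM in sum over the 10 microglia groups.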

How the data were processed

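RNA of FACS-sorted cells was amplified with SMART-Seq v4 and sequenced as paired ends. The study's methods name HISAT2 for alignment and featureCounts for counting, while the submitters' processing notes name Bowtie 0.12.2 and build mm8, and this conflict could not be settled. The deposited values are FPKM computed by the authors, 1 column for each of 20 groups of 3 labelled libraries, and how libraries were combined is not given in the sources used here. Values of single libraries were not used here, so no count test could be run, and the study's DESeq2 test was replaced by fold changes without p-values. Each column was scaled by its size factor (median of ratios over 22075 genes, 0.986 in microglia and 1.01 in astrocytes), 0.1 was added and log2 differences were taken, microglia minus astrocytes, for genes of at least 0.5 FPKM in either column. Genes listed at 0 entered list medians with the added 0.1. A gene that passed in only 1 population, and well above the limit there, had to differ. Counts over lists, in which 737 of 805 genes passed, are therefore descriptions. The depth was read from the steps between the lowest FPKM values, which takes each group value as the mean of 3 libraries.

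The genes named were the 20 highest and 20 lowest folds among genes of at least 5 FPKM in the higher column, the 15 most abundant genes of each column, the sorting antigens, members of the lists, the 10 most abundant genes with folds within 0.1, and up to 10 genes among the 500 most abundant of both columns whose direction changed in other pairs. Some genes that meet this rule are not reported here. The miRNA genes were chosen after their values were seen. The members and lists were chosen with earlier results of these data known. Gene classes are from GENCODE M21, matched for 35923 of 35999 identifiers, and sequences are from RefSeq GRCm38.p6. On simulated data the script found 200 of 200 genes changed by known folds. The scripts ran on Python 3.11.15 with pandas 2.3.3 for tables, NumPy 2.4.6 for arithmetic, SciPy 1.17.1 and, for plots, Matplotlib 3.10.9. In all, 9 alternatives were computed.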

Additional observations from a re-analysis of the deposited data

How the results depend on the processing

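The 9 alternatives were other scalings, pseudocounts, filters and removal of a gene length trend. Rescaling FPKM to a common sum gave 2765 genes over 16-fold lower in microglia. A pseudocount of 1 gave 326 genes over 16-fold higher and 394 over 16-fold lower, and a pseudocount of 0.01 gave 1273 and 2779. With no filter on low values 10881 genes were lower in microglia by over 0.5, and the medians of the lymphocyte and complement lists were -0.49 and -0.0183, below 0, because genes under 0.5 FPKM then entered. The other 30 counts stayed within 1.5 times their main values. Each of the 50 list medians was compared with its main value under each of the 9 alternatives. Of these comparisons 346 stayed within the spread used, 102 moved and the 2 just given were reversed. A pseudocount of 1 moved 35 of the 50 medians, and rescaling to a common sum and a pseudocount of 0.01 moved 25 each. The medians of ribosomal and reference genes, which lay within 0.5 of 0, also crossed 0 after rescaling to a common sum, to -0.15 and -0.21. Folds of named genes were compared in the same way, and of these comparisons 5826 stayed, 1086 moved and 0 were reversed as called differences. A pseudocount of 1 moved 432 of the folds, where 339 stayed. Genes higher in microglia made up 34.2% of those past 0.5 after rescaling to a common sum and 44.0% to 51.6% under the other alternatives. No paired analysis was possible because each deposited column joins the libraries of a group, and for the same reason no library could be left out. A median of 48.8 fragments stood behind 0.5 FPKM in microglia, so lower levels rest on fewer fragments.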

Other observations

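Genes of the immunoglobulin heavy chain were abundant in the microglia column. They were looked at because Ighm was the most abundant gene outside the protein-coding class among those over 16-fold higher, so they were chosen after their values were seen. Ighm, the constant region of IgM, was at 228 FPKM in microglia and 0.928 FPKM in astrocytes, with 197 to 353 FPKM over the 10 microglia groups and 0.3803 to 0.928 FPKM over the 10 astrocyte groups. The joining segment Ighj1 was at 127 FPKM in microglia and was listed at 0 in all 10 astrocyte groups. Ighj2, Ighj3, Ighj4 and the diversity segment Ighd4-1 were at 9.41 to 22.2 FPKM in microglia and were also listed at 0 in all 10 astrocyte groups. FPKM is scaled to length, and the number of fragments behind these segments is not given here. Cd79b, a signalling chain of the B cell receptor, was at 21.9 FPKM in microglia and 0.204 FPKM in astrocytes, while its partner Cd79a was at 0.191 FPKM in microglia and 0.290 FPKM in astrocytes. Tnfrsf17 and Tnfrsf13b, receptors for B cell survival factors, were at 35.8 and 46.2 FPKM in microglia, while in astrocytes Tnfrsf17 was listed at 0 and Tnfrsf13b was at 0.0581 FPKM. Ms4a1, a marker that defines B cells, was listed at 0 in microglia and was at 0.0495 FPKM in astrocytes. The light chain gene Igkc was at 0.304 FPKM in microglia and 1.95 FPKM in astrocytes. Group values cannot show whether every library held these transcripts, and where they begin in the locus was not tested.

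Protein-coding genes were a smaller part of the genes over 16-fold higher in microglia, 532 of 799 (66.6%), than of those over 16-fold lower, 1353 of 1529 (88.5%), with 76.1% over all 17112 genes. Long intergenic non-coding RNAs made up 7.01% of the genes over 16-fold higher, 3.6% of those over 16-fold lower and 3.25% of all. The coding genes over 16-fold higher had a median exon length of 3365.5 bases and those over 16-fold lower 4010.0 bases, against 4349 bases over all coding genes.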
